A study of Mus musculus with 2 samples.

Results

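Expression of 42 genes of glycolysis, gluconeogenesis and glycogen was compared between hepatocytes of healthy mouse liver and Sox9+EpCAM- cells of injured liver. The genes were chosen by name, as enzymes, glucose transporters and regulatory proteins of these routes, when earlier results of these data were known. All 42 were on the array, among 30153 gene names in all. One RNA sample was of mature hepatocytes (MHs), which were separated from healthy liver by Percoll gradient centrifugation. The other was of GFP+EpCAM- cells, sorted by flow cytometry from Sox9-EGFP mice fed with DDC, a compound that injures the bile ducts. According to the study's methods, the healthy livers were of Sox9-EGFP mice too, a strain in which GFP reports the activity of Sox9, a transcription factor of bile duct cells and liver progenitors. The labels call all mice male, and the age and number of mice behind these arrays were not given in the sources used here. Each Cy3-labelled RNA went onto 1 Agilent array, and the arrays shared a slide and a scan. Neither group has a replicate, so no difference has an SD between mice or a test, and precision is limited by the number of arrays.

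Glycolysis splits glucose into pyruvate, with a small yield of ATP, and pyruvate is reduced to lactate or oxidised in mitochondria. Gluconeogenesis runs most of the same steps backwards and bypasses the irreversible ones with its own enzymes, and the liver uses it to release glucose in fasting. Hepatocytes also store glucose as glycogen. Many steps have several isoenzymes from different genes, of which hepatocytes use a liver form, while other tissues use forms with other kinetics and regulation.

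Intensities are the background-subtracted fluorescence of a spot. For comparison they were divided by the 75th percentile of the array, which was 741 for MHs and 1110 for Sox9+EpCAM- cells, and taken to log2. A gene is represented by its brightest probe, and a log2 difference is Sox9+EpCAM- minus MH after this scaling. Intensities are printed as measured, so an equal share of the array corresponds to an intensity that is higher on the Sox9+EpCAM- array. Where a probe was not well above background on an array, the difference is a bound, in which the dim side was set to its own signal or, if higher, to the dimmest signal of that array that passed (27.8 for MHs and 18.4 for Sox9+EpCAM- cells). The scanner's error model gave the differences of the genes measured on both arrays a median error of 0.20 and at most 0.34 on the log2 scale where the probe was printed once. That error and the SD between repeated spots cover the spots of an array only.

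The labels were checked against marker genes. All 10 hepatocyte enzymes of the marker list and all 8 secreted hepatocyte proteins were measured in both groups, and their median log2 differences were -2.27 and -0.76. Their summed level, in units of the 75th percentile, was 850 in MHs and 190 in Sox9+EpCAM- cells for the enzymes, and 1200 and 712 for the secreted proteins. The 10 cholangiocyte markers, of which 8 were higher and 2 lower with a median of 0.61 without bounds and 0.67 with them, summed to 3.35 and 50.4. On the log2 scale Spp1, by far the largest part of that sum, lay at 6.93 and Epcam, although the sort was for EpCAM-negative cells, at 3.73, but Krt19 at 0.42, Cldn7 at 0.21, Krt7 at -0.23 and Cftr at -1.0. Sox9 passed the background limit only in Sox9+EpCAM- cells. The 12 stellate cell and fibroblast markers summed to 12.3 and 54.5, and 10 of them were higher. Eln and Mgp were at least 134-fold and 129-fold higher, and Col3a1, Col1a1 and Col1a2 85.1-fold, 21.3-fold and 15.4-fold, while of the defining receptors and enzymes Pdgfra was at least 3.58-fold higher, Lrat was not well above background in Sox9+EpCAM- cells and Pdgfrb in neither group. Leukocyte, endothelial and erythroid lists summed to 33.9, 7.73 and 4.56 in MHs and to 16.0, 2.76 and 0.755 in Sox9+EpCAM- cells. Csf1r and Cd74 made up most of the leukocyte sum, at -0.42 and -3.07, and of that list 10 genes were lower and 1, Cd68, was 14.4-fold higher. The part of these cells in the differences below was not tested, and in such bulk samples fewer cells of a type and less RNA per cell cannot be told apart. Although both samples are labelled male, Xist read 1940 in MHs and 16.1, not well above background, in Sox9+EpCAM- cells, while 4 genes of the Y chromosome passed the background limit in the latter only. So the MH array goes against its label, sex and group cannot be told apart, and no result can be given without that array.

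Of the 42 genes, 38 were measured in both groups. Slc2a1 and Pfkfb2 passed the background limit in Sox9+EpCAM- cells only, and Hk2 and Pfkfb1 on neither. Among the 40 with a level on at least 1 array, 5 were higher by 4-fold or more in Sox9+EpCAM- cells, or 12.5%, beside 5.59% (1309) of 23417 genes of the whole array. A single gene was lower by 4-fold or more, or 2.5% beside 5.57% (1304 genes, with 1650 higher and 1006 lower when Gapdh was set equal). At 2-fold, 8 of 40 were higher, or 20% beside 14.2%, and 6 were lower, or 15% beside 16.7%. The split at 2-fold turned on the scaling, with 9 higher and 4 lower after quantile normalization and 6 higher and 10 lower in the deposited table, and 6 were higher and 5 lower with normexp, a model-based background correction. The median difference of the 38 was -0.26 on the log2 scale, beside -0.19 over all 19235 genes measured in both groups, and moved between -0.44 and 0.04 with the scaling. Gene by gene the range ran from -2.42 for Pdk1 to 4.91 for Pdk4. Most of the pathway thus lay near the array's median, and a few genes stood far from it on either side. Since sets of genes were not tested, the shares describe these arrays.

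**Figure D1:**
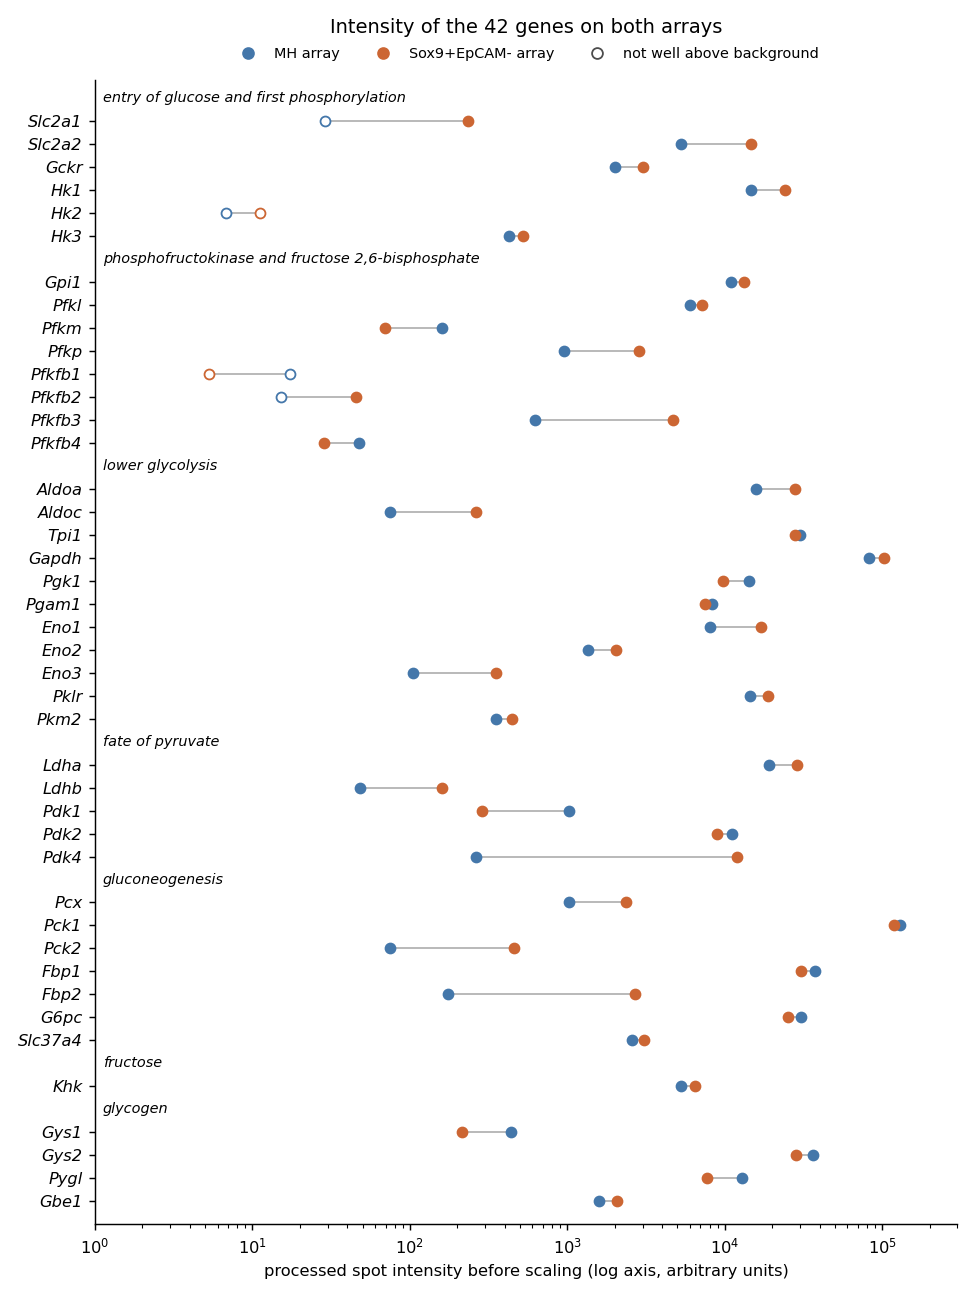
Intensity of each of the 42 genes by its brightest probe on the MH array (blue) and the Sox9+EpCAM- array (orange), on a log axis before scaling, grouped by role, with open circles for probes not well above background. Points are comparable within a gene only, and Pdk4 shows the widest gap, from 264 to 11900.

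The genes at the fate of pyruvate held both ends of the range. Pdk4, a kinase that shuts off the pyruvate dehydrogenase complex and is induced by fasting and fatty acids, read 264 in MHs and 11900 in Sox9+EpCAM- cells. After scaling it was 30.1-fold higher in the latter, or 4.91 in log2. Pdk1, a kinase of the same family that is induced by hypoxia, went from 1020 to 285 and was 5.36-fold lower, at -2.42. Pdk2, the form most widespread in liver, read 11100 and 8920, or -0.90, and its second probe gave -1.64. The 3 kinases act on the same complex, and their differences did not all lie on 1 side. Pdk4 kept 4.55 to 5.18 and Pdk1 -2.61 to -2.16 over the 10 other ways of processing that were run.

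Lactate dehydrogenase showed no such spread in its main form. Ldha, the muscle-type subunit that is also the form of liver, had intensities of 19200 and 28800, which after scaling gave 0.00, and its other probes gave 0.37 and 0.11. Ldhb, the heart-type subunit, was dim on both arrays, with 48.4 and 159, and 2.19-fold higher in Sox9+EpCAM- cells, although its probe shares 20 bases with a probe of another name. With normexp its difference fell to 0.35.

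At the entry of glucose, Slc2a1, the glucose transporter GLUT1 of endothelium and many dividing cells, read 29.0 in MHs, not well above background, and 233 in Sox9+EpCAM- cells. The difference was at least 5.36-fold, or 2.42 in log2, but 1.03 with normexp background correction, where it no longer reached 4-fold. Slc2a2, the low-affinity transporter GLUT2 of hepatocytes, read 5290 and 14700 and was 1.86-fold higher, so both transporters were brighter after scaling. Gckr, the protein that holds the liver's glucose-phosphorylating enzyme in the nucleus, was level, with 2000 and 3010 and a difference of 0.01. Of the hexokinases, Hk2, the insulin-responsive form of muscle and fat, read 6.79 and 11.1, not well above background on either array. Hk3, a form of myeloid cells, read 424 and 523, or -0.28.

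Hk1, the hexokinase of brain and red cells, depends on the probe. Its brightest probe read 14600 and 24100, a difference of 0.14, but shares 20 bases with probes of 5 other names, among them the ribosomal protein gene Rpl17. A second probe, which shares no such stretch, read 19.2 in MHs, not well above background, and 319 in Sox9+EpCAM- cells, or at least 7.66-fold higher. The third was not well above background on either array. In the array design the brightest probe is listed against no RefSeq transcript of Hk1, while the other probes are. Which of these reads Hk1 cannot be told from the intensities alone.

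Phosphofructokinase commits sugar to glycolysis, and its subunits come from 3 genes. Pfkl, the liver subunit, read 6040 and 7160, or -0.34. Pfkm, the muscle subunit, was dim at 159 and 69.5 and 3.43-fold lower in Sox9+EpCAM- cells. That probe was printed 10 times on each array, with an SD between spots of 0.07 and 0.09. The log2 difference was -1.78, and the spread between spots leaves out that between mice. Pfkp, the platelet subunit, read 949 and 2840 by its brightest probe, or 1.0, just under 2-fold. Its other probe, nearer to the end of the gene, read 1230 and 896, or -1.04, so the direction of Pfkp was not settled.

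Fructose 2,6-bisphosphate switches phosphofructokinase on and gluconeogenesis off, and bifunctional enzymes make and degrade it. Pfkfb3, the form with the highest kinase activity, which is induced in proliferating and hypoxic cells, read 620 and 4670 and was 5.03-fold higher in Sox9+EpCAM- cells. Its second probe read 7.0 in MHs, not well above background, and 273 in Sox9+EpCAM- cells, or at least 6.56-fold higher, so both probes pointed the same way. Pfkfb1, the liver form, read 17.2 and 5.28, and was above background on neither array. Pfkfb2, the heart form, was near the limit, with 15.2 and 45.5 and a bound of 1.09-fold. Pfkfb4, the testis form, read 47.4 and 28.3, or -1.33 (-0.68 with normexp), while its second probe gave a bound of at least 0.36 the other way. Gpi1, the isomerase ahead of these enzymes, had 3 probes between -0.40 and -0.29.

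The enzymes of lower glycolysis, from aldolase to pyruvate kinase, lay on both sides of 0. Of 11 genes of this group, all with both values, 5 were higher and 6 lower (9785 and 12092 over all genes), from -1.14 for Pgk1 to 1.24 for Aldoc with a median of -0.21. None reached 4-fold, where 5.59% of all genes were higher and 5.57% lower. Aldoa, the muscle aldolase, read 15700 and 27900, or 0.25, and Tpi1, triosephosphate isomerase, 29900 and 27700, or -0.69. Pgam1, phosphoglycerate mutase, read 8230 and 7490, or -0.72. Eno1, the widespread enolase, read 8040 and 17000, or 0.50, by a probe that shares 20 bases with the gene model Gm5506. Pgk1, phosphoglycerate kinase, read 14300 and 9750 and was 2.2-fold lower, but the array design places its only probe on chromosome 3, while the gene lies on chromosome X, and the probe shares 20 bases with Gm5537. Other isoenzymes of aldolase and enolase are those of brain and muscle. Aldoc, the brain aldolase, read 74.2 and 263 and was 2.37-fold higher (1.24 in log2, but 0.67 with normexp). Eno3, the muscle enolase, read 105 and 350 and was 2.23-fold higher (1.15 in log2, but 0.66 with normexp), whereas Eno2, the neuronal enolase, was level with 1350 and 2050 and 0.02.

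Pyruvate kinase ends glycolysis. Pklr, whose product is the liver and red cell enzyme, read 14500 and 18800, or -0.21. The gene listed as Pkm2, now named Pkm, of the muscle and proliferation-linked enzymes read 352 and 443, or -0.25. The ratio of Pkm2 to Pklr therefore differed by only -0.04 on the log2 scale between the arrays, and both signs turned when Gapdh was set equal. Its single probe is listed against both RefSeq transcripts of the gene, so the splice forms M1 and M2 were not told apart.

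Gapdh, often taken as a reference gene, had 8 probes, all of which share 20 bases with probes of other names. The brightest read 81900 and 102000, or -0.27, and 5 probes lay between -0.27 and -0.24. The 3 dimmest lay between 0.73 and 0.80. The difference of Gapdh thus changed its sign with the probe, and also under quantile normalization, where the brightest gave 0.30.

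The liver enzymes of gluconeogenesis were bright on both arrays and moderately lower on the Sox9+EpCAM- array. Pck1, cytosolic phosphoenolpyruvate carboxykinase and a classic target of glucagon, read 129000 and 119000, or -0.70. Fbp1, fructose 1,6-bisphosphatase of liver, read 37100 and 30400, and G6pc, the glucose 6-phosphatase that releases free glucose, read 30600 and 25000, both at -0.87. Slc37a4, the transporter that feeds G6pc, read 2590 and 3050, or -0.35. These 4 kept a negative sign in every scaling that was run, with Pck1 between -0.87 and -0.12. Pcx, pyruvate carboxylase, which opens the route in mitochondria, read 1020 and 2340 and was 1.53-fold higher. Khk, the kinase through which liver takes up fructose, read 5260 and 6490, or -0.28, which turned to 0.02 after quantile normalization.

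The second forms of the gluconeogenic enzymes went the other way. Fbp2, the muscle fructose 1,6-bisphosphatase, read 175 in MHs and 2670 in Sox9+EpCAM- cells and was 10.2-fold higher, at 3.35. Pck2, the mitochondrial phosphoenolpyruvate carboxykinase, which is known to be induced by amino acid and endoplasmic reticulum stress, read 75 and 461 and was 4.10-fold higher. Its probe was printed 10 times, with an SD between spots of 0.17 and 0.11. Fbp2 kept 2.96 to 3.61 over the alternatives, whereas Pck2 lay at 2.04, just inside the 4-fold limit, and left it in 3 of them, at 1.28 with normexp, 1.90 with quantile normalization and 1.86 in the deposited table.

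All 4 glycogen genes were lower, beside 12092 lower and 9785 higher over all genes, with a median of -1.14, although Gbe1 turned to 0.07 when Gapdh was set equal. Pygl, the liver phosphorylase that breaks glycogen down, read 12900 and 7650 and was 2.53-fold lower. Gys2, the liver glycogen synthase, read 36300 and 28300, or -0.94. Its second probe was dim, with 115 and 197, and gave 0.19. Gys1, the muscle synthase, read 437 and 214 and was 3.06-fold lower, while its second probe read 73.8 and 129, or 0.22. Gbe1, the branching enzyme, read 1580 and 2070, or -0.19, and -0.72 by its second probe. For both synthases the brighter probe was lower and the dimmer one slightly higher.

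Set out by isoform, 11 of the genes are the form used by hepatocytes and 16 a form of other tissues. Of the 10 liver forms with a level, 8 were lower and 2 higher, beside 12092 lower and 9785 higher over all genes, and none reached 4-fold. Their median was -0.52 and ranged from -0.69 in the deposited table, where that of all genes was -0.37, to -0.07 after quantile normalization, where that of all genes was -0.11. Of the 15 forms of other tissues with a level, 10 were higher and 5 lower. The median of the 13 with both values was 0.14, with values up to 3.35 for Fbp2 and down to -1.78 for Pfkm, and it ranged from -0.04 to 0.54, so its sign was not settled. The median of 0.14 is the value of Hk1 by its shared probe, and it was 0.13 with only probes that share no 20 bases. Fbp2, Slc2a1 and Pfkfb3 were the 3 forms of other tissues past 4-fold, which 5.59% of all genes were too, and with normexp Slc2a1 was not among them. The ratio of a pair does not depend on the scaling by a factor. From MHs to Sox9+EpCAM- cells the ratio of Fbp2 to Fbp1 was 18.6-fold higher, that of Pck2 to Pck1 6.66-fold, and that of Slc2a1 to Slc2a2 at least 2.89-fold. Both of the latter shrank with normexp, to differences of 1.28 for Pck2 against -0.65 for Pck1 and of 1.03 for Slc2a1 against 0.92 for Slc2a2. The ratio of Pfkm to Pfkl was 2.71-fold lower and that of Gys1 to Gys2 1.59-fold lower. So the pairs did not all shift towards the form of other tissues.

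**Figure D2:**
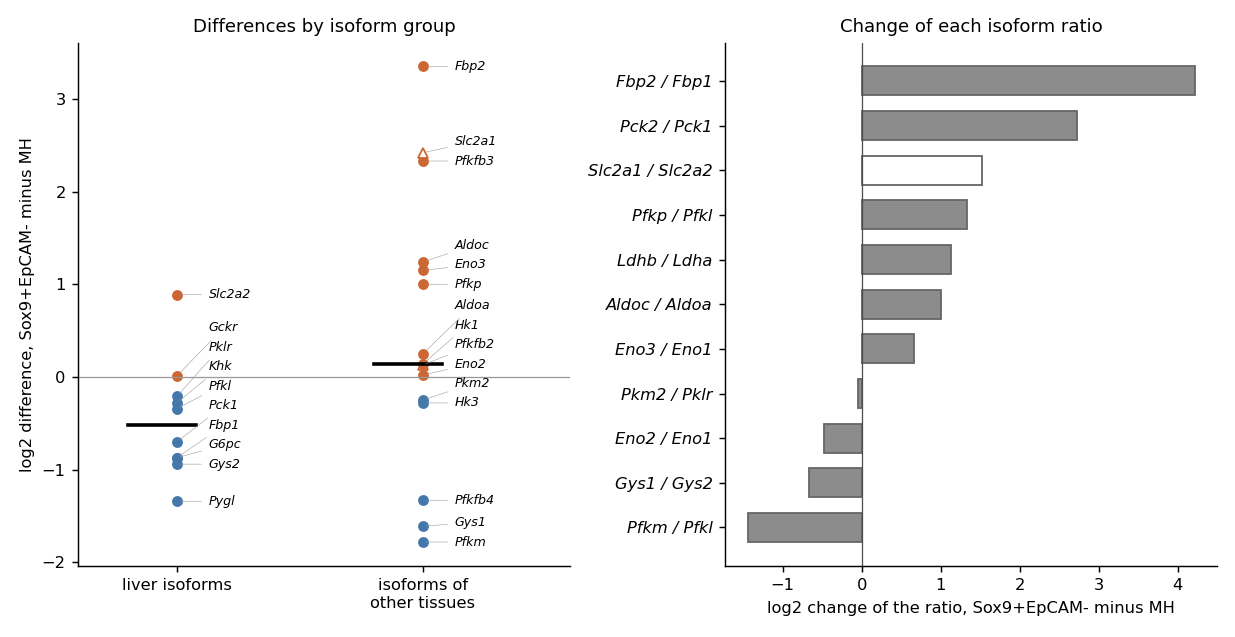
Left, log2 difference (Sox9+EpCAM- minus MH) of each liver isoform and isoform of other tissues, with orange above 0, blue below 0, triangles for bounds and a bar for the median, bounds left out (-0.52 and 0.14). Right, log2 change of the ratio of 11 isoform pairs between the arrays, where the open bar is a bound, running from -1.44 for Pfkm to Pfkl up to 4.22 for Fbp2 to Fbp1.

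Of 65 probes of these genes, 13 share a stretch of 20 bases, on either strand, with a probe of another name, beside 7.67% of all probes, and 5 genes have such a probe as their brightest (Gapdh, Hk1, Eno1, Pgk1 and Ldhb). Of 14 genes with more than 1 probe, the differences of the probes lay over 4-fold apart for Hk1 and Pfkp, and over 2-fold apart for 6. Which transcripts each of them reads was not tested. The sequences below, 60 bases long, are the brightest probes of Fbp2, Pfkfb3 and Pfkp, and for Hk1 not the brightest but the second probe, which shares no such stretch and gave the bound of 7.66-fold. Positions are those of the array design on mm9. Those of Fbp2, Pfkfb3 and Pfkp span 4516, 1414 and 2155 genomic bases for 60 bases of probe, so their letters come from more than 1 exon.
Fbp2, chr13:62950852-62955367, minus strand: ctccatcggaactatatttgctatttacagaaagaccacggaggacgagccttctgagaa
Pfkfb3, chr2:11404189-11405602, minus strand: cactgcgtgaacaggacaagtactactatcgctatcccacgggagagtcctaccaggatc
Pfkp, chr13:6581718-6583872, minus strand: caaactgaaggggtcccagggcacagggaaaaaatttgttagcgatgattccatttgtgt
Hk1, chr10:61732717-61732776, minus strand: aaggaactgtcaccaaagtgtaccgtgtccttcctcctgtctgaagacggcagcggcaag

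**Figure D3:**
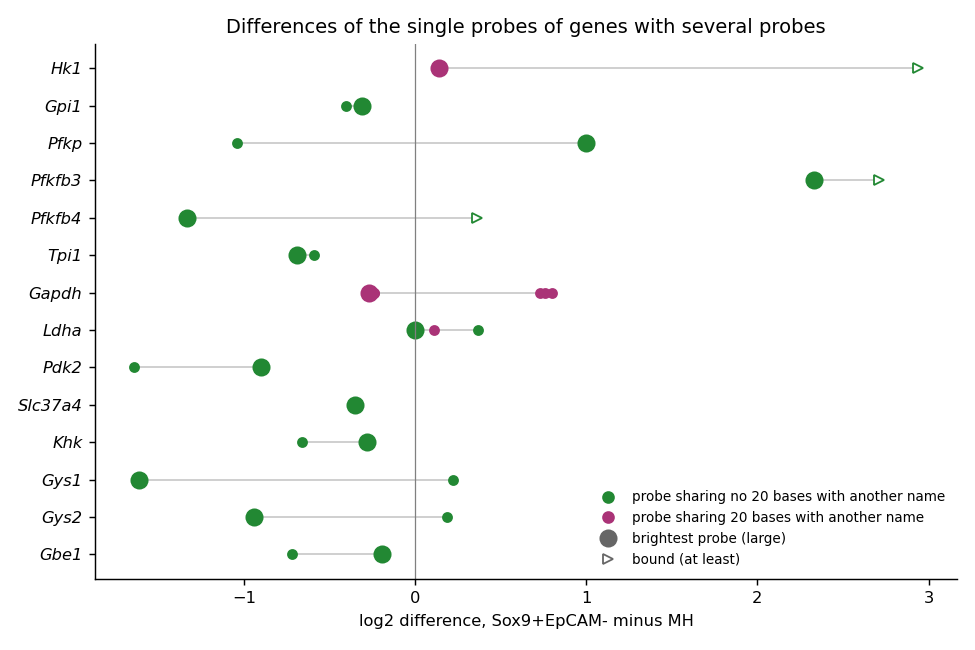
Log2 difference (Sox9+EpCAM- minus MH) of every probe above background on at least 1 array, for the 14 genes with more than 1 probe, where large points are the brightest probe, purple points share 20 bases with another name and triangles are bounds. The probes of Hk1 and Pfkp lie over 4-fold apart, and those of Gapdh form a group near -0.25 and a group near 0.76.

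The stretches before the start sites of the 5 genes at least 4-fold higher and of Pdk1, the single one at least 4-fold lower, are given for their motifs. They are the 250 bases before the start in the RefSeq promoter table (GRCm38.p6), 5′ to 3′ on the strand of the gene, with every match in capitals. The table held 41 of the 42 genes. Pfkfb3 and Pdk1 have 2 starts in it, of which 1 is shown. It is the start with most matches of CACGTG for Pfkfb3 and of GGGCGG for Pdk1, or in a tie the lower position. The shown start was thus picked by a motif, and the other start is not described. Motifs were searched on both strands as CACGTG (the E-box read by Myc and the carbohydrate response factors), TGATGNAA (read by ATF4 with C/EBP factors), GGGCGG (the GC box of Sp1), CCAAT (read by NF-Y), TATAAA (the TATA box) and TGACGTCA (the cyclic AMP element).
Pdk4, chr6:5496279-5496528, minus strand: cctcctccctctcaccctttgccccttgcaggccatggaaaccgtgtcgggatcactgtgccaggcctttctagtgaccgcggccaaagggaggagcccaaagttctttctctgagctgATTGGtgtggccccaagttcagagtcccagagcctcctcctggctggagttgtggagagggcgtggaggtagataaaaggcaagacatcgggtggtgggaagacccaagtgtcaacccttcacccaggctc
Fbp2, chr13:62858401-62858650, minus strand: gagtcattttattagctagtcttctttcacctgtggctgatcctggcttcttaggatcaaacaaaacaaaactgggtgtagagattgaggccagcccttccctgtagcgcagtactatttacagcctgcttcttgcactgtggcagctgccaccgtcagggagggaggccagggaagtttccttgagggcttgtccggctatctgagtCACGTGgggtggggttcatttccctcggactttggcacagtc
Pfkfb3, chr2:11502091-11502340, minus strand: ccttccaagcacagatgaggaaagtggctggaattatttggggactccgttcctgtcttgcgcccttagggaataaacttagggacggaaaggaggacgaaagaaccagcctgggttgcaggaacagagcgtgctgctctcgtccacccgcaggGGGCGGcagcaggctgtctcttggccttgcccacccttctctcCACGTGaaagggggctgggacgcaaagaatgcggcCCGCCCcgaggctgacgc
Slc2a1, chr4:119108495-119108744, plus strand: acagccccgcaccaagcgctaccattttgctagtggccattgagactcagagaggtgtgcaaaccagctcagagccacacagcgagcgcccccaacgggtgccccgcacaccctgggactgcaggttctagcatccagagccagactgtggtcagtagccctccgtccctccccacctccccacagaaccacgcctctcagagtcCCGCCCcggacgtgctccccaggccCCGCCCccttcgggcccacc
Pck2, chr14:55540016-55540265, plus strand: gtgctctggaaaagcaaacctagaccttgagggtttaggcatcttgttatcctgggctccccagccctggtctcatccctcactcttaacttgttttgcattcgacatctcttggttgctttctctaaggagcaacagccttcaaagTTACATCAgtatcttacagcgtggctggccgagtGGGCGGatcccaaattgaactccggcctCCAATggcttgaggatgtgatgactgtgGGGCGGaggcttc
Pdk1, chr2:71872974-71873223, plus strand: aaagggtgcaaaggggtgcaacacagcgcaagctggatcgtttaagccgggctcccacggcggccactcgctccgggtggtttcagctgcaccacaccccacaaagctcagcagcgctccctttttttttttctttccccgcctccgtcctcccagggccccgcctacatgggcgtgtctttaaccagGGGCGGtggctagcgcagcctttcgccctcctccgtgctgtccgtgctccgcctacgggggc

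Fbp2 and Pfkfb3 each hold a CACGTG close before the start shown, at 42 to 37 and 53 to 48 bases. For Pfkfb3 that start was picked by its matches of CACGTG. Over all members CACGTG was in 8 of 41 genes, or 19.5%, beside 6.86% of all 27025 genes of the table. The 8 lay on both sides, since Pfkm was among the lower and Fbp2 and Pfkfb3 among the higher genes, and Ldha, Pdk2, Pcx and Khk lay between -0.90 and 0.61, with a bound only for Pfkfb2. Pck2 holds TGATGNAA at 103 to 96 bases before the start, which 3.91% of genes and of the members also G6pc have. GGGCGG was in 24 of 41 members, or 58.5%, beside 35.4%, and stands in Slc2a1, Pfkfb3, Pck2 and Pdk1, that is in genes on either side. Pdk4 holds CCAAT, found in 51.2% of members and 37.5% of genes, and none of the other 5. A match describes the letters and is no evidence of binding.

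Of 117 other genes of glucose metabolism, in 5 lists, 112 were on the array. The 97 with both values had a median of -0.50, 13 of the 105 with a level were at least 4-fold higher, beside 5.59% of all genes, and 7 at least 4-fold lower, beside 5.57%. The lists were read to see how the steps around the 42 genes stood, and their members were chosen for their function.

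Beside pyruvate dehydrogenase, where Pdk4 and Pdk1 parted, Pdp1, a phosphatase that undoes the kinases' action, read 39.9 and 728 and was 12.2-fold higher. Pdp2, the other such phosphatase, read 1570 and 1150 and was 2.05-fold lower. Pdk3 was at least 3.82-fold higher. Dlat, the core subunit of the complex, read 135 and 37.8 and was 5.35-fold lower, whereas Dld, Pdha1, Pdhb and Pdhx lay between -0.76 and 0.27. So neither the kinases nor the phosphatases lay on 1 side. Of this list the median of the 20 genes with both values was -0.55, and Got1, cytosolic aspartate aminotransferase, was the lowest at -2.63 (7410 and 1790), followed by Dlat and by Mdh1, cytosolic malate dehydrogenase, at -1.89.

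Around glycogen, Ppp1r3c, which brings protein phosphatase 1 to the glycogen particle, read 448 and 49.2 and was 13.6-fold lower, while Ppp1r3b, the liver's main subunit of this kind, read 106000 and 98300, or -0.69. The highest gene with both values was a phosphoglucomutase, listed as Pgm1 in the array design and named Pgm2 today by its accession, at 5.10-fold (533 and 4070). The probe listed as Pgm2 lay at -0.90. Phka1, a regulatory subunit of phosphorylase kinase, was at least 4.80-fold higher and Gyg, the glycogenin on which a particle starts, at least 3.55-fold higher. Pygm and Pygb, the muscle and brain phosphorylases, lay at 1.85 and 0.62, in contrast to Pygl at -1.34. Pygm was dim in MHs, with 41.9 and 226, and Pygb read 472 and 1090, both far below Pygl at 12900 and 7650. Of the list 9 genes were higher and 11 lower, beside 9785 higher and 12092 lower over all genes. The 17 with both values had a median of -0.51, beside -0.19 over all genes, or -0.31 with the 3 bounds.

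Among the side routes, Rpia, which makes ribose 5-phosphate in the pentose phosphate pathway, read 5.73 in MHs, not well above background, and 978 in Sox9+EpCAM- cells, a difference of at least 23.5-fold. Akr1b3, aldose reductase, which turns glucose into sorbitol, read 17.9, not well above background, and 657, at least 15.8-fold higher, and Sord, which turns sorbitol into fructose, read 874 and 101 and was 13.0-fold lower. Both enzymes of the polyol route thus lay past 4-fold in opposite directions. The glycerol 3-phosphate dehydrogenases Gpd1 and Gpd2 were 4.21-fold and 4.08-fold higher, and G6pdx, the entry enzyme of the pentose phosphate pathway, 2.11-fold. Galt, of galactose use, was the second lowest at -1.83. Slc2a5, the fructose transporter, was at least 12.0-fold higher, with 6.93 (not well above background) and 501.

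Of 33 regulators with a level, 5 were at least 4-fold higher, beside 5.59% of all genes. Myc, a transcription factor of growth, read 350 and 32900 and was 62.8-fold higher. Trib3, a pseudokinase induced by endoplasmic reticulum stress, was 10.4-fold higher, Nr4a1, an immediate early nuclear receptor, 8.29-fold, Irs2, an insulin receptor substrate, 7.17-fold, and Hif1a, the hypoxia factor, 4.08-fold (42.4 and 259). Hif1a was dim in MHs and just past the limit, and genes of the other lists were not followed under the other ways of processing. Klf15, a factor that promotes gluconeogenesis in fasting, read 764 and 131 and was 8.74-fold lower, and Sik1, a kinase that restrains it, read 1020 and 325 and was 4.70-fold lower. Irs1 lay at -1.94. The median of the 32 with both values was -0.54, and Mlxipl, the carbohydrate response factor of liver, read 23400 and 23500, or -0.58.

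**Figure D4:**
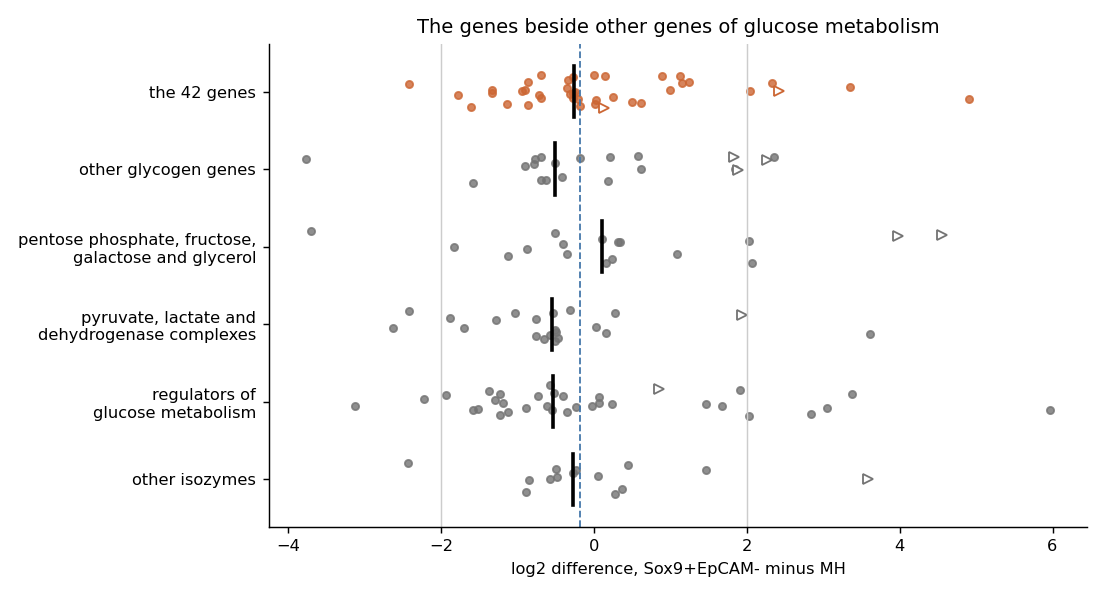
Log2 difference (Sox9+EpCAM- minus MH) of the 42 genes (orange) and of 5 lists of other genes of glucose metabolism (grey), each point 1 gene, triangles for bounds, black bars for the median with bounds left out, grey lines at 4-fold and the dashed line at the median of all genes (-0.19). The 42 genes centre on -0.26, close to the dashed line, and Myc lies farthest to the right at 5.97.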

How the data were processed

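Total RNA of 2 samples was hybridised to 1 Agilent array each. The authors deposited the processed spot intensity that Feature Extraction 10.7.3.1 computed, background-subtracted and with no normalization between arrays, with the mean and background intensity and flags. They also deposited a table of ratios, which equal each intensity over the median of its array (SD of the log2 factor 0.0018). No sample column was left unused. Control and outlier spots were left out, intensities were scaled to the 75th percentile, taken to log2 and averaged per probe (39390 probes). The brightest probe stood for a gene, and well above background meant at least 50% of its spots. No test was possible, so 4-fold and 2-fold differences were the rules of size. The members and lists were chosen with earlier results of these data known. Every member could be named. Of the other lists, genes past 4-fold and the extremes were named, though not all of them are reported here, and other genes were picked after their values were seen. Gene names are those of the design, of which 41 of the 42 are current symbols in RefSeq (GRCm38.p6) and 1 is a synonym. Alternatives were normexp (limma 3.58.1 in R 4.3.3, offset 50), 4 other scalings, other choices of probe, outlier spots kept, no bound, and a filter on dim genes. The procedure was tested on simulated data. Python 3.11.15, pandas 2.3.3 and numpy 2.4.6 were used.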

Additional observations from a re-analysis of the deposited data

How the results depend on the processing

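The 7 summary values and the difference of each of the 42 genes that had one were recomputed under 10 alternatives. Single genes of the other lists were not followed in them. The number of genes at least 4-fold higher was 5 as reported and 3 with normexp background correction, where Slc2a1 (1.03) and Pck2 (1.28) fell short. It was 4 with quantile normalization, in the deposited table and with only genes measured in both groups. With only probes that share no 20 bases it was 6, as Hk1 was added. The number at least 2-fold lower was 6 as reported and 10 in the deposited table. The other counts of the 42 genes stayed within 1.5 times of the reported ones. Over all genes, 1309 were 4-fold higher and 1304 lower as reported, beside 612 and 660 with normexp and, where only genes measured in both groups were kept, 758 and 914. The median of all genes moved by 0.27 when Gapdh was set equal and by -0.18 in the deposited table, and the median of the 42 genes lay -0.06 from it in both, as in the reported scaling, but 0.15 from it after quantile normalization. None of the 6 genes past 4-fold changed sign in any alternative. With only probes that share no 20 bases, Hk1 was at least 2.93 higher on the log2 scale and 4 genes had no value left. No paired analysis was possible because the groups hold 1 array each, which also leaves no fit with a slide term and no replicate to omit. Signals under 27.8 for MHs and 18.4 for Sox9+EpCAM- cells were too dim to measure.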
